A study of Homo sapiens with 6 samples.

Results

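The coding interior was taken as the positions of a coding sequence more than 60 nt from both the start and the stop codon, on transcripts that averaged 1 or more reverse transcriptase (RT) stops per nucleotide in each of the 4 libraries treated with dimethyl sulfate (DMS). Of 15739 RefSeq transcripts in the deposited data, 1107 passed this minimum, 1065 of these were coding, and 1007 were matched to a GENCODE transcript with a complete reading frame, 1 for each gene. A coding interior was left in 1002 of them, with 695256 positions in 231752 codons. These are 34.2% of the 2034055 positions of the matched transcripts, and the series lists a stop at 8204444 positions in all. The interiors were 30 to 4902 nt long, with a median of 531 nt.

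RT-stop profiling was done on poly(A)-selected mRNA of U2OS, a human osteosarcoma cell line, which was cut into short fragments and reverse transcribed so that each cDNA end marks 1 stop. Without DMS, untreated RNA was reverse transcribed in 150 mM K+ or in 150 mM Na+. Purified poly(A) RNA was also refolded in 150 mM K+ or Li+ and then treated with DMS, and cells were treated with 8% DMS for 5 min either unstressed or after 2 h of starvation in Hank's balanced salt solution. RNA of both DMS cell libraries was reverse transcribed in 150 mM K+ and was selected for poly(A) after the DMS treatment, whereas the refolded RNA was selected before it. The concentration of DMS and the time of treatment for the refolded RNA are not given in the sources used here, so that a difference in DMS dose cannot be told apart from that between cells and refolded RNA. Each of the 6 conditions had 1 library of 1 cell line, so that no difference between conditions has a replicate check, and the 95% intervals of the medians below cover variation between transcripts only. The names of the deposited tables of both libraries without DMS contradict their sample labels, and they are called here the libraries labelled K+ and Na+. Markers of mesenchymal cells were present, with 21.4 to 58.9 stops per nt on VIM over the 6 libraries, 2.27 to 9.63 on SPARC, 0.513 to 3.96 on COL1A1 and 0.207 to 1.57 on FN1, but COL1A2 had no listed stop. Of the markers of other cells, EPCAM stayed at or below 0.0411 stops per nt and PTPRC at or below 0.00305, KRT19 and ALB had no listed stop, and HBB had 0.0726 to 0.870.

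DMS methylates A and C on the face that pairs with another base, so that an unpaired and unprotected A or C stops RT, and it also methylates G on another face. In cells, the coding sequence is read by ribosomes in steps of 1 codon, and RNA in a ribosome or bound by protein can be hidden from DMS. The genetic code also gives the codon positions different base compositions, since the third position is often free to vary while the first and second mostly set the amino acid. A periodicity of 3 nt in the stops can thus be present in the RNA sequence itself, and refolded RNA and RNA without DMS were both measured outside cells, with ribosomes removed.

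Each window below is the in-frame stretch of 30 nt with the most stops in the interior of its gene, counted in the DMS library where it has the fewest, and is shown for 6 of the 7 genes with the most stops to make the reading frame visible. Capitals mark codon position 3, and the letters are those of GRCh37 (hg19) with T for U.
GAPDH: aaCagCgaCacCcaCtcCtcCacCttTgaC
EEF1A1: atGtgTgtTgaGagCttCtcAgaCtaTccA
RPS2: gcCatTtcTaaGacCtaCagCtaCctGacC
RPL4: aaCatTttGaaGctTgcTccTggTggGcaT
RPLP1: aaTgcCctCatTaaAgcAgcCggTgtAaaT
RPLP0: gtCcgCaaTgtTgcCagTgtCtgTctGcaG

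All 6 windows are coding sequence within 1 exon. That of GAPDH (a glycolytic enzyme) covers codons 287 to 296 in exon 8, at chr12:6647083-6647112 on the + strand. EEF1A1 (the elongation factor that brings aminoacyl-tRNA to the ribosome) is shown from codon 410 to 419 in exon 7, at chr6:74227760-74227789 on the - strand. The windows of the ribosomal protein genes RPS2 and RPL4 lie in exon 7 of each, at chr16:2012225-2012254 and chr15:66793385-66793414, both on the - strand. For the genes of the ribosomal stalk proteins RPLP1 and RPLP0 they lie in exon 2 at chr15:69745998-69746027 on the + strand and in exon 7 at chr12:120635233-120635262 on the - strand. The GAPDH window held 9469 stops without DMS (labelled K+), 8837 after refolding in K+, 10026 in unstressed cells and 11046 in starved cells.

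In the GAPDH window, the phenylalanine codon ttT had 496, 374 and 448 stops at its positions 1, 2 and 3 without DMS, against 116, 86 and 56 after refolding in K+ and 77, 45 and 51 in unstressed cells. Stops at U, which DMS hardly modifies, were thus lower than without DMS at all 3 positions of this codon in the libraries with DMS. The next codon, gaC for aspartate, had 330 stops at its A and 804 at its C without DMS. After refolding in K+ it had 825 at A and 725 at C, in unstressed cells 871 and 771, and in starved cells 1118 and 692. In the lysine codon aaG of the RPL4 window, both A positions had 194 and 183 stops without DMS, 389 and 128 after refolding in K+, 319 and 177 in unstressed cells and 446 and 289 in starved cells. Since single positions depend on the bases around them, codon positions were compared by means over the interior of each transcript.

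The interior as a whole held 9133955 stops without DMS in the library labelled K+ and 8643678 in that labelled Na+, 5873877 and 8090894 after refolding in K+ and Li+, 3330837 in unstressed cells and 7306115 in starved cells. Only positions with at least 3 stops are listed, which held for 71.9% of the interior without DMS (labelled K+), 54.5% after refolding in K+, 34.5% in unstressed and 46.8% in starved cells. Unlisted positions were counted as 0, which lowers the levels most where stops are few, as at U in the DMS libraries. A and C took 52.9% of interior stops without DMS (labelled K+) and 80.0% after refolding in K+. In unstressed cells they took 86.6%, with 60.4% at A and 26.2% at C, and in starved cells 75.2%, with 59.4% at A and 15.8% at C. The share of C was thus lower in starved than in unstressed cells, while the share of G was 18.9% in starved and 10.7% in unstressed cells.

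Stops were then divided by the transcript mean of the same base, as in the deposited ratio, so that a value of 1 is the average position of that base in that transcript. The comparison of cells with refolded RNA asks whether the periodicity in cells differs from the periodicity of the same sequence outside them. At A, the median level over transcripts at codon positions 1, 2 and 3 was 1.11, 1.04 and 1.05 after refolding in K+, 0.890, 0.827 and 0.797 in unstressed cells and 0.947, 0.878 and 0.886 in starved cells. At C it was 0.884, 0.807 and 0.991 after refolding, 0.816, 0.671 and 0.768 in unstressed cells and 0.812, 0.673 and 0.827 in starved cells. Without DMS (labelled K+), A had 1.09, 0.974 and 1.11 and C had 1.02, 0.837 and 1.15. Position 2 was the lowest at C in every library. At position 3, C was the highest of the 3 positions without DMS and after refolding, below position 1 in unstressed cells, and close to it in starved cells.

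**Figure D1:**
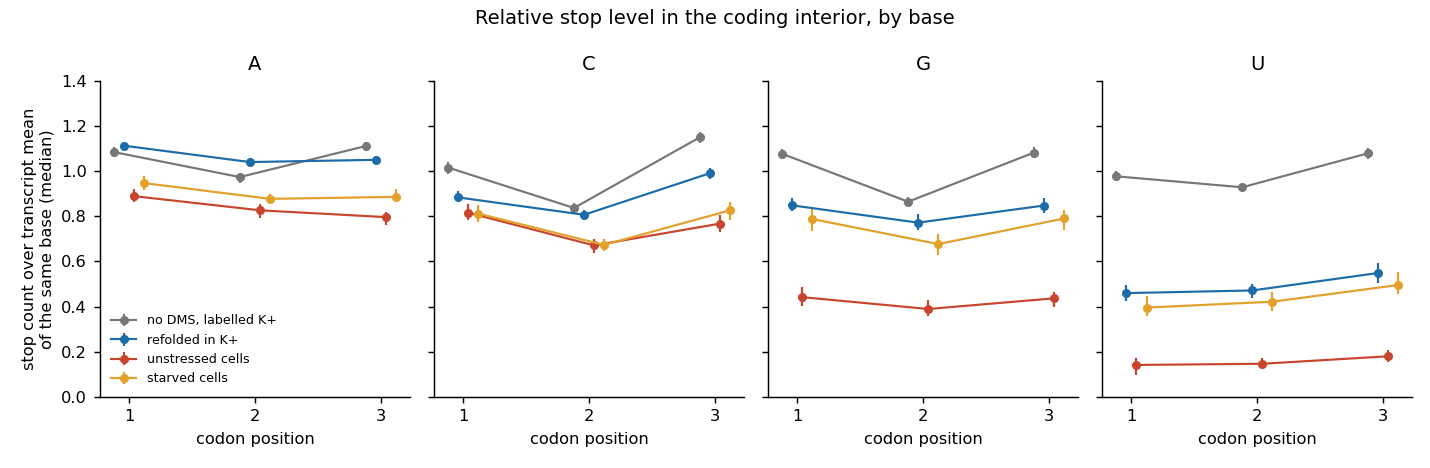
Median stop count over the transcript mean of the same base (vertical axis, no unit) at codon positions 1, 2 and 3, for A, C, G and U in 4 libraries, with 95% intervals over transcripts as bars. In unstressed cells C at position 3 (0.768) lies below position 1 (0.816), while after refolding in K+ it lies above (0.991 against 0.884).

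For each transcript, the mean level of A and C at position 2 or 3 was set over that at position 1 on a log2 scale. For position 3 over 1, the median was 0.11 without DMS (labelled K+; 95% interval 0.097 to 0.13) and 0.10 (labelled Na+), 0.037 after refolding in K+ (0.020 to 0.053) and 0.036 in Li+, -0.12 in unstressed cells (-0.13 to -0.10) and -0.046 in starved cells (-0.057 to -0.027), over 828 transcripts. Position 3 was thus above position 1 in the libraries without DMS and in refolded RNA and below it in both cell libraries. Position 2 was below position 1 in every library, with medians of -0.19 and -0.18 without DMS, -0.11 and -0.12 after refolding in K+ and Li+, -0.20 in unstressed and -0.19 in starved cells, over 892 transcripts. Transcripts spread widely around these medians: the middle 50% of them lay between -0.26 and 0.028 for position 3 over 1 in unstressed cells and between -0.10 and 0.16 after refolding in K+. Transcripts just below the minimum, with 0.8 to 1 stop per nt, had a median of -0.13 in unstressed cells and 0.051 after refolding (166 transcripts), and those just above it, with 1 to 1.25, had -0.093 and 0.032 (130 transcripts). In starved cells these medians were -0.070 and -0.00080, so that just above the minimum position 3 was hardly below position 1.

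**Figure D2:**
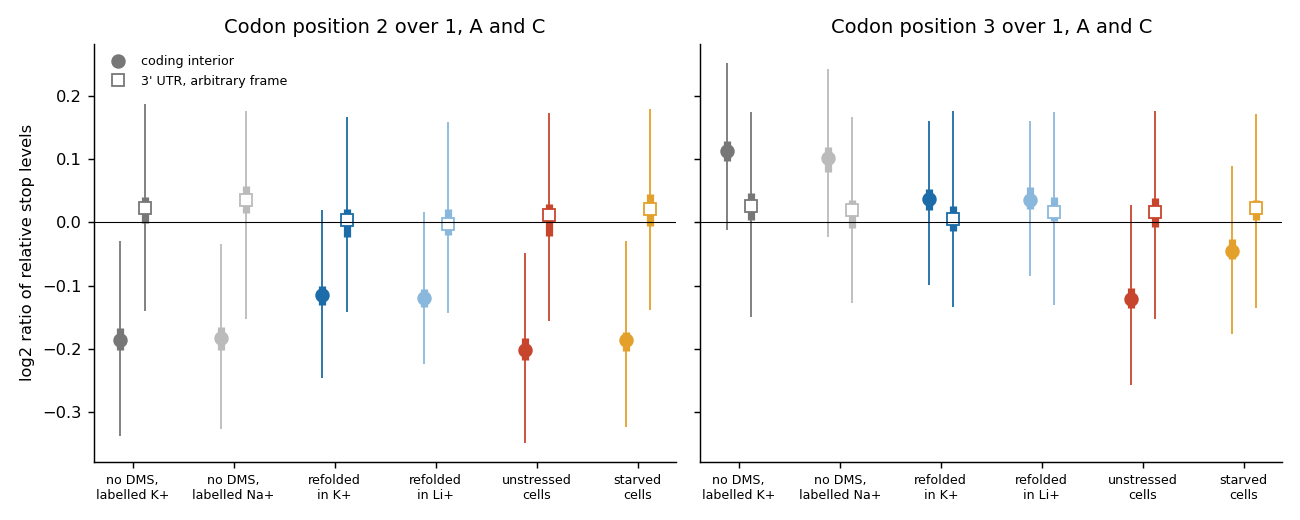
Log2 ratio of the relative stop level of A and C at codon position 2 over 1 (left) and 3 over 1 (right) in the 6 libraries, with circles for medians over transcripts of the coding interior, squares for the same calculation in the 3′ UTR, thick bars for 95% intervals and thin bars for the middle 50% of transcripts. The coding medians for 3 over 1 fall from 0.11 without DMS to -0.12 in unstressed cells, while the 3′ UTR medians lie between 0.006 and 0.026.

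Taken transcript by transcript, position 3 over 1 was lower in unstressed cells than after refolding in K+ by a median log2 difference of -0.14 (-0.16 to -0.13), a 0.905-fold ratio, and the difference was below 0 in 631 of 828 transcripts. Position 2 over 1 differed by -0.084 (-0.10 to -0.068), below 0 in 589 of 892 transcripts. Both differences were similar with RNA refolded in Li+ as the reference (-0.15 and -0.076), and the Li+ and K+ refolded libraries differed from each other by 0.001 (-0.009 to 0.009) for position 3 over 1. In starved cells, position 3 over 1 was higher than in unstressed cells by 0.068 (0.055 to 0.084), and the difference was below 0 in 283 of 828 transcripts, whereas position 2 over 1 differed by 0.005 (-0.011 to 0.015). Starved cells differed from RNA refolded in K+ by -0.073 (-0.091 to -0.055) for position 3 over 1. Refolded RNA differed from RNA without DMS (labelled K+) by 0.070 (0.052 to 0.096) for position 2 over 1 and by -0.070 (-0.088 to -0.055) for position 3 over 1. In the 3′ UTR, where the frame was counted on from the stop codon, unstressed cells and refolded RNA differed by 0.003 (-0.018 to 0.030) for position 3 over 1 and by 0.005 (-0.014 to 0.031) for position 2 over 1, over 606 and 615 transcripts.

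The difference between cells and refolded RNA was mostly at C. At C, position 3 over 1 was 0.17 after refolding in K+ and in Li+ and 0.19 without DMS (labelled K+), against -0.12 in unstressed and -0.022 in starved cells. The transcript difference between unstressed cells and RNA refolded in K+ was -0.28 (-0.31 to -0.25), below 0 in 675 of 896 transcripts. For position 2 over 1, C was at -0.13 after refolding and at -0.28 and -0.29 in unstressed and starved cells, and the difference of unstressed cells from refolded RNA was -0.15 (-0.18 to -0.12). A showed less: position 3 over 1 was -0.057 after refolding, -0.11 in unstressed and -0.063 in starved cells, and position 2 over 1 differed between unstressed cells and refolded RNA by 0.002 (-0.014 to 0.016) over 953 transcripts. G, at position 3 over 1, was within 0.041 of 0 in all 6 libraries, and U was at 0.17 after refolding, 0.026 in unstressed cells (-0.077 to 0.089) and 0.17 in starved cells over 407 transcripts. The difference of unstressed cells from refolded RNA at U, a base that DMS hardly modifies, was -0.16 (-0.24 to -0.073).

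The bases on either side of a position were not the same at the 3 codon positions, and the contrasts moved when they were held equal. Levels were averaged within each combination of the 2 bases before and the 2 after, and then over combinations seen at all 3 codon positions, which were 192 of 256 for A and 256 of 256 for C. For A and C together, position 3 over 1 was then -0.015 without DMS (labelled K+), -0.010 after refolding in K+, -0.092 in unstressed and -0.092 in starved cells, and position 2 over 1 was -0.066, -0.023, -0.11 and -0.10. The rise at position 3 without DMS and in refolded RNA, and the difference between starved and unstressed cells, which was -0.00041, were thus no longer seen for A and C together, while both cell libraries stayed below refolded RNA at positions 2 and 3. At C alone, position 3 over 1 was -0.036 after refolding, -0.15 in unstressed and -0.23 in starved cells, and position 2 over 1 was -0.041, -0.18 and -0.18. At A alone, position 3 over 1 was 0.013, -0.040 and 0.021, so that starved cells lay above unstressed cells at A and below them at C. At U, with 208 combinations, position 3 over 1 was 0.16 after refolding and 0.15 in unstressed cells, so that their difference was hardly seen. With only 1 base held on each side, U was at 0.024 after refolding and -0.047 in unstressed cells. These values are means over all positions and have no interval.

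**Figure D3:**
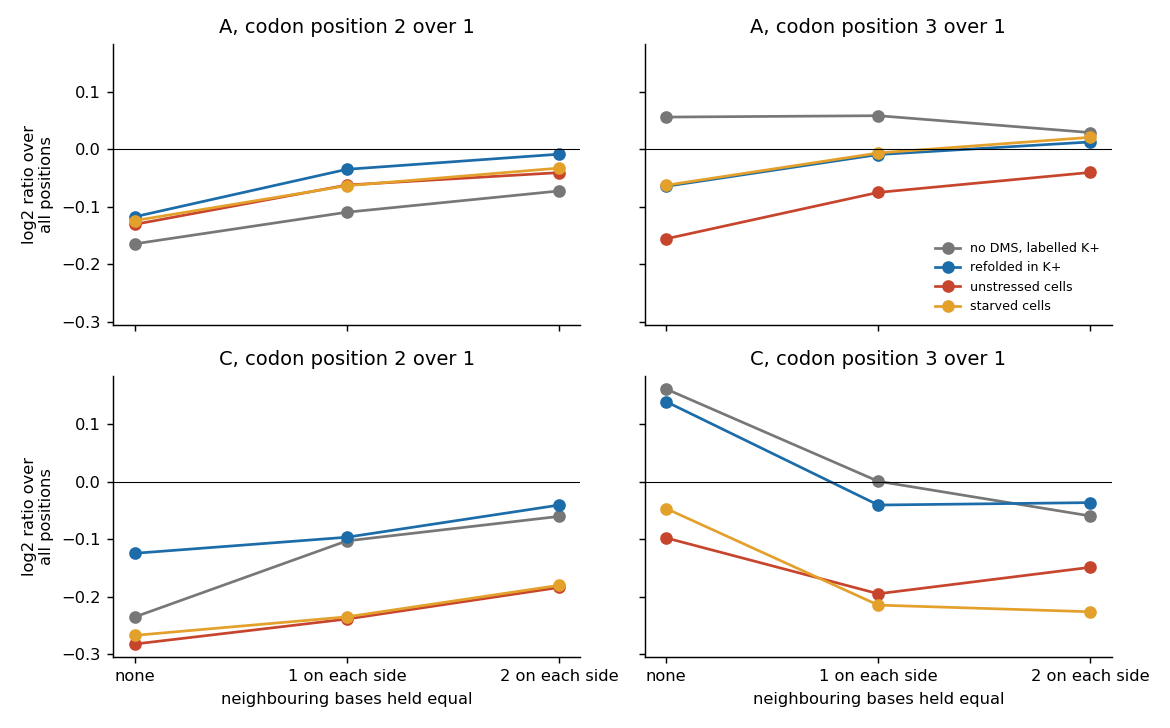
Log2 ratio over all interior positions of A (top) and C (bottom) at codon position 2 over 1 (left) and 3 over 1 (right), with no neighbouring base, 1 base or 2 bases on each side held equal (horizontal axis), in 4 libraries. With 2 bases held, C in both cell libraries lies at -0.18 for 2 over 1 and at -0.15 and -0.23 for 3 over 1, below refolded RNA at -0.041 and -0.036.

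Periodicity was also measured without choosing a codon position, as the spectral power at a period of 3 nt over the mean power at periods from 2.2 to 6 nt, for all 4 bases of interiors of at least 300 nt. The median over 773 transcripts was 3.82 (3.43 to 4.28) without DMS (labelled K+), 3.59 (labelled Na+), 1.29 (1.19 to 1.47) after refolding in K+, 1.68 (1.51 to 1.84) in Li+ and 1.09 (0.940 to 1.19) in unstressed cells, and 1.38 (1.27 to 1.64) over 772 transcripts in starved cells. The ratio was over 3 in 57.6% of transcripts without DMS (labelled K+), in 23.0% after refolding in K+, in 13.7% of those in unstressed cells and in 23.4% of those in starved cells. The power at 3 nt was thus highest in the libraries without DMS, whose RNA was probed neither in cells nor after refolding, and lowest in unstressed cells. In the 3′ UTR the medians were 0.595 to 0.739. With A and C alone the coding medians were 2.33 without DMS, 1.16 after refolding in K+, 1.09 in unstressed and 1.26 in starved cells. Unstressed cells had the fewest stops in the interior, and the part of depth in these power values was not tested.

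**Figure D4:**
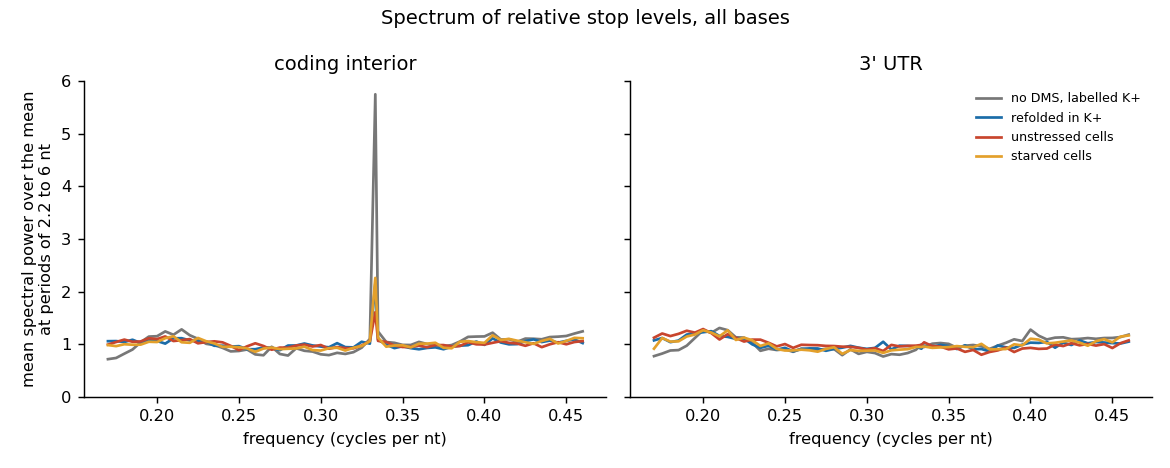
Spectral power of the relative stop levels over the mean at periods of 2.2 to 6 nt (vertical axis, mean over transcripts) against frequency in cycles per nt, in the coding interior (left) and the 3′ UTR (right) for 4 libraries. The coding peak at a period of 3 nt reaches 5.75 without DMS, 2.15 after refolding in K+, 1.61 in unstressed and 2.26 in starved cells. No such peak stands out in the 3′ UTR.

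The level of the interior as a whole differed more than the codon positions did. The mean relative level of A and C in the interior over that in the 3′ UTR of the same transcript had a median log2 of -0.021 without DMS (labelled K+), -0.11 after refolding in K+, -1.05 (-1.17 to -0.89) in unstressed cells over 757 transcripts and -0.83 (-0.94 to -0.64) in starved cells over 761. These levels moved with the minimum of stops. At 5 or more stops per nt they were 0.48 without DMS (labelled K+) and 0.39 (-0.21 to 0.91) after refolding in K+. In unstressed and starved cells they were then -0.33 (-0.87 to 0.28) and -0.31 (-0.66 to 0.33). At 20 or more they were 1.09 without DMS (labelled K+) and 0.78 (-0.74 to 5.50) after refolding in K+. In cells they were then -0.31 (-1.17 to 3.29) unstressed and 0.37 (-1.13 to 8.03) starved. At both minima the intervals of refolded RNA and of both cell libraries took in 0, and both cell medians lay below that of refolded RNA. Positions of the 3′ UTR without a listed stop counted as 0, which raises this ratio. Over 21 cytosolic ribosomal protein transcripts the median was 7.48 without DMS (labelled K+) at the minimum of 1 stop per nt. At the minimum of 1 stop per nt transcripts differed widely, with the middle 50% between -2.03 and 0.83 in unstressed cells and between -0.74 and 1.59 after refolding in K+. The difference between unstressed cells and RNA refolded in K+ was -0.88 (-0.95 to -0.85), a 0.542-fold ratio, and was below 0 in 682 of 756 transcripts. It was -0.65 over the 145 transcripts with at least 5 stops per nt and -0.55 over the 17 with at least 20. The median difference of starved from unstressed cells was 0.11 (0.068 to 0.17) over 754 transcripts, but 0.020 (-0.087 to 0.10) over the 145 with at least 5 stops per nt and -0.038 (-0.28 to 0.12) over the 17 with at least 20, so that it was not seen in the transcripts with more stops. The same ratio was low in unstressed cells also at the bases where DMS stops were few, with -1.76 at G and -1.65 at U, against -0.25 and -0.31 after refolding in K+. At 5 or more stops per nt it was -0.94 at G and -0.98 at U in unstressed cells, against 0.19 and 0.046 after refolding. At 20 or more it was -0.33 (-1.62 to 2.89) at G and -0.68 (-1.66 to 1.44) at U in unstressed cells, against 0.39 and 0.59 after refolding in K+.

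Within the interior, both cell libraries rose from 5′ to 3′. With each interior cut into 3 equal stretches, A and C in unstressed cells had median levels of 0.466, 0.771 and 1.02, and in starved cells of 0.531, 0.792 and 1.05. After refolding in K+ the levels were 0.894, 1.01 and 1.04 and without DMS (labelled K+) 0.936, 1.07 and 1.08. The log2 ratio of the last to the first stretch was 1.08 (0.95 to 1.19) in unstressed cells, 0.90 (0.84 to 0.96) in starved cells, 0.22 after refolding in K+ and 0.20 without DMS. At the 5′ border of the interior, the mean level of A and C in unstressed cells was 0.523 in the codon just outside, 58 to 60 nt from the start codon, and 0.604 in the codon just inside. The part of this slope in the level of the interior was not tested, and the treatment in cells cannot be told apart from the order of DMS and poly(A) selection.

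**Figure D5:**
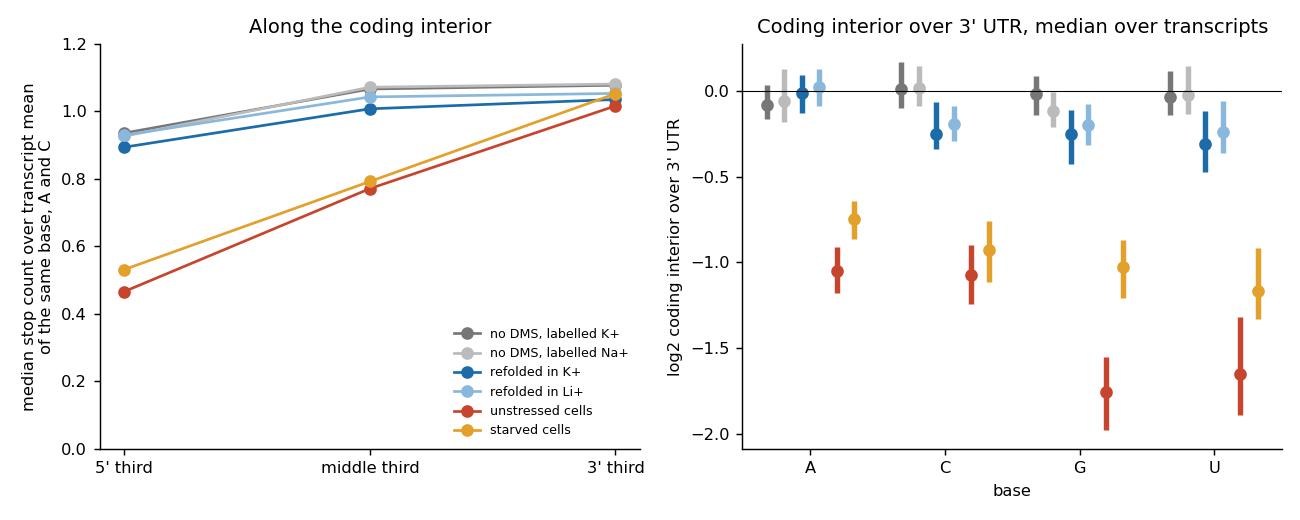
Left, median relative stop level of A and C (vertical axis, no unit) in the 5′, middle and 3′ stretch of the coding interior for the 6 libraries. Right, median log2 ratio of the coding interior over the 3′ UTR for each base with 95% intervals, at the minimum of 1 stop per nt. Unstressed cells rise from 0.466 to 1.02 along the interior and lie at -1.05 (A), -1.07 (C), -1.76 (G) and -1.65 (U) on the right.

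Single positions were counted as well. Of the 90994 interior A and C positions with at least 20 stops over the pair, 22.9% were at least 2-fold lower and 7.25% at least 2-fold higher in unstressed cells than after refolding in K+, against 16.1% lower and 14.4% higher over all 195241 such positions of these transcripts. In the 3′ UTR 6.88% were lower and 24.5% higher. By codon position, 21.8%, 22.7% and 24.4% of interior positions were lower at positions 1, 2 and 3, and 7.69%, 7.19% and 6.78% were higher. Between starved and unstressed cells, 11.5% of 81297 interior positions were at least 2-fold higher in starved cells and 8.12% lower, against 12.4% higher and 9.51% lower over all positions, so that the interior was close to the whole transcript. At codon position 3, 12.8% were higher and 7.33% lower, and at position 1, 10.7% and 8.37%.

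Codon sites were also compared one by one, with no neighbouring base held equal and with no interval. Of the 92 A and C sites in the sense codons, 89 had a lower mean level in unstressed cells than after refolding in K+. The interior as a whole was lower as well. Over all its A and C positions, at equal weight, codon positions 1, 2 and 3 averaged 0.836, 0.726 and 0.765 in unstressed cells. After refolding in K+ they averaged 1.06, 0.972 and 1.08. The count of sites and the ratios below were not corrected for this lower level. The lowest ratios were at C in the threonine codon ACA, position 2 (log2 -0.73, from 1.85 to 1.12), at the first A of the lysine codon AAA (-0.72, from 1.30 to 0.791) and at C in the asparagine codon AAC, position 3 (-0.69, from 1.65 to 1.03). The highest were at C in the leucine codon CUG, position 1 (0.15, from 0.829 to 0.922), in the serine codon UCU, position 2 (0.094, from 0.787 to 0.840), and in the alanine codon GCU, position 2 (0.034, from 0.566 to 0.580), and these 3 sites were the only ones above 0. The same sites differed without DMS (labelled K+), where ACA position 2 was at 1.87 and CUG position 1 at 0.562. Between starved and unstressed cells, 36 of the 92 sites were lower, with CCG position 1 (-0.47) and CUG position 1 (-0.44) lowest and CAA position 1 (0.46) highest. At A in position 3, the 14 codon sites all had a positive log2 ratio of starved over unstressed cells, from 0.069 to 0.26, and at C in position 3 the 16 sites lay between -0.14 and 0.069.

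The 12 genes with the most interior stops were GAPDH, EEF1A1, RPS2, RPL4, RPLP1, RPL8, RPLP0, EEF1G, RPL7A, RPS3A, TUBB and RPS12, of which 8 encode ribosomal proteins, 2 elongation factors, 1 a glycolytic enzyme and 1 a tubulin. GAPDH had 152 to 287 stops per nt over the 6 libraries. Its position 3 over 1 for A and C was 0.15 and 0.069 without DMS (labelled K+ and Na+), 0.081 and 0.047 after refolding in K+ and Li+, -0.25 in unstressed cells and -0.052 in starved cells. Unstressed cells were the lowest of the 6 and starved cells the next. At its C alone, positions 1, 2 and 3 were at 1.08, 0.872 and 1.24 after refolding in K+ and at 1.29, 0.925 and 1.06 in unstressed cells.

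EEF1A1 had 0.23 and 0.23 without DMS, 0.021 and 0.030 after refolding, -0.093 in unstressed and 0.064 in starved cells for position 3 over 1. For RPL4 these values were 0.043 and 0.059, 0.076 and 0.14, -0.13 and 0.047. Unstressed cells were again the lowest of the 6 libraries in both, while starved cells lay above both refolded libraries in EEF1A1 and below both in RPL4. RPLP1, with only 219 interior nt and 11 C at position 1, went the other way: 0.54 and 0.45 without DMS, -0.41 and -0.40 after refolding, 0.13 in unstressed and 0.13 in starved cells. RPS12, with 273 interior nt, was also higher in unstressed cells than after refolding in K+ (0.13 against -0.025), as was RPL7A (0.061 against 0.013). The other 9 of the 12 genes were lower in unstressed cells than after refolding, with differences from -0.33 in GAPDH to -0.018 in RPS2.

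Among the 79 transcripts with at least 5 stops per nt in the DMS libraries and at least 30 A and 30 C at each codon position, genes were ranked by the difference of unstressed cells from RNA refolded in K+, which gives the extremes as a description. The lowest for position 3 over 1 were ANXA2 (a calcium-dependent membrane-binding protein, -0.60), VDAC1 (the channel of the outer mitochondrial membrane, -0.35), CCT3 (a chaperonin subunit, -0.33) and the glycolytic enzymes PGK1 (-0.33) and PKM (-0.31). In ANXA2, position 3 over 1 was -0.25 and -0.34 without DMS, -0.052 and -0.030 after refolding in K+ and Li+, -0.66 in unstressed and -0.34 in starved cells. In PKM it was 0.044 and 0.030, -0.038 and -0.026, -0.35 and -0.21, so that both cell libraries lay below the other 4. The highest differences were those of TGFBI (a secreted matrix protein, 0.12), SLC25A3 (the mitochondrial phosphate carrier, 0.067), PSMB1 (a proteasome subunit, 0.050), RPL7A (0.049) and ODC1 (the enzyme that starts polyamine synthesis, 0.034). TGFBI, also the highest for position 2 over 1 (0.25), was at 0.13 and 0.18 after refolding and at 0.26 and 0.27 in unstressed and starved cells for position 3 over 1.

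For position 2 over 1, the lowest differences were those of DHRS2 (a dehydrogenase, -0.32), NCL (nucleolin, -0.26), RAN (the GTPase of nuclear transport, -0.25), ANXA2 (-0.25) and ITGB1 (an integrin subunit, -0.24). NCL was at -0.25 and -0.23 after refolding in K+ and Li+ and at -0.51 and -0.54 in unstressed and starved cells. The highest after TGFBI were TYMS (thymidylate synthase, 0.19), PSMB1 (0.17), RPS6 (0.17) and MORF4L1 (a chromatin protein, 0.13). ITGB1 also had a low interior as a whole in cells, with levels of 0.313, 0.268 and 0.268 at positions 1, 2 and 3 in unstressed cells against 0.779, 0.786 and 0.803 after refolding in K+. ACTB, the only gene that the study names and that passed the minimum, had 0.43 and 0.34 without DMS, 0.43 and 0.43 after refolding, 0.16 in unstressed and 0.15 in starved cells for position 3 over 1, with only 12 A at position 3. Its interior stops numbered 13393 in unstressed and 2194 in starved cells.

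Gene groups were described by the median difference of their measured members in position 3 over 1, beside -0.14 and 631 of 828 below 0 over all transcripts for unstressed cells against RNA refolded in K+. Cytosolic ribosomal proteins were closer to 0, at -0.081 with 45 of 61 below 0. Translation factors were at -0.15 with 21 of 27, chaperones at -0.19 with 16 of 16, glycolysis enzymes at -0.22 with 8 of 10, secretory and matrix proteins at -0.25 with 9 of 9, and actins, tubulins and their partners at -0.25 with 12 of 13. For starved against unstressed cells, with a median of 0.068 over all transcripts, the groups lay between 0.044 in glycolysis enzymes and 0.13 in translation factors. In position 2 over 1, unstressed cells differed from refolded RNA by -0.037 in ribosomal proteins (38 of 66 below 0) and by -0.13 in actins, tubulins and partners (13 of 14), with -0.084 over all transcripts. The lists hold 9 to 66 measured members, and their medians were not tested against each other.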

How the data were processed

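The authors removed duplicate reads, kept reads that Bowtie placed at 1 position of the hg19 transcriptome with no mismatch, and deposited the stop count of each nucleotide with at least 3 stops. The second deposited value, the ratio, is that count over the mean of the same base in the transcript, and this mean was recovered as summed counts over summed ratios. Versions of the tools are not given in the sources used here. Listed stops summed to 12999691 to 35371061 per library.

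RefSeq transcripts were matched by their listed bases (at least 97% identity over at least 80% of them) to GENCODE release 44 on GRCh37. For 992 of 1007, equally good matches gave 1 coding start and end. Contrasts needed at least 10 positions of A and of C at each codon position, and A and C had equal weight. With 1 library per condition no test was made. Medians have 95% order-statistic intervals.

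The members, gene lists and rules were chosen with earlier results of these data known. Named were the 12 genes with the most interior stops, the 5 highest and 5 lowest of each ranked difference, the genes the study names, and the 3 highest and 3 lowest codon sites. Windows are the stretches with the most stops in 6 of the first 7 genes. In total 16 alternatives were set first and 1, with 2 neighbouring bases held on each side, was added after seeing the data. The calculation was tested on simulated data. Scripts ran under Python 3.11.15 with pandas 2.3.3 and numpy 2.4.6, intervals came from scipy 1.17.1 and plots from matplotlib 3.10.9.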

Additional observations from a re-analysis of the deposited data

How the results depend on the processing

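No paired analysis was possible because each condition had 1 library and no result comes from a test. The log2 difference of unstressed cells from RNA refolded in K+ kept its sign under every alternative. For position 3 over 1 it was -0.11 with unlisted positions counted as 1, -0.11 with 1 neighbouring base on each side held equal, -0.083 with 2, and -0.17 at more than 150 nt from the start and stop codons. For position 2 over 1 it was -0.064 at a minimum of 5 stops per nt and -0.044 with unlisted positions counted as 1.

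The difference of starved from unstressed cells did not hold its sign. For position 3 over 1 it was 0.097 with stops summed over transcripts, 0.052 with unlisted positions counted as 1, 0.038 with background subtracted, 0.031 with 1 neighbouring base held and -0.00041 with 2. For position 2 over 1 it was 0.018 with summed stops and 0.018 at more than 150 nt. Refolded RNA minus RNA without DMS was, for position 2 over 1, 0.11 with summed stops and 0.043 with 1 or 2 bases held, and for position 3 over 1 -0.096 when thinned to equal stops, -0.053 with 1 base held and 0.0058 with 2. Position 3 over 1 itself turned with 1 base held in RNA refolded in K+ (-0.023) and Li+ (-0.015), and with 2 held in both of these (-0.0095 and -0.011) and in the libraries without DMS labelled K+ (-0.015) and Na+ (-0.0063).

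Period-3 power with A and C alone was 2.33 and 2.22 without DMS (labelled K+ and Na+), 1.16 and 1.25 after refolding in K+ and Li+, and 1.26 in starved cells. At a minimum of 50 stops, 5.81% of interior positions were higher and 15.6% lower in unstressed cells than after refolding, against 13.3% and 11.1% over all positions, and 7.79% were higher and 5.72% lower in starved than unstressed cells, against 8.82% and 7.37% over all positions. The other 64 values of these summary results under an alternative stayed within the interval of the value reported. Counts under 3 were not listed and unstressed cells were the shallowest library, so that contrasts there rest on fewer positions. The background subtracted was that of the library labelled K+.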
